A study of Mus musculus with 12 samples.

Results

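The 10 genes described here are erythroid priming and haem synthesis genes: the transcription factors Gata1, Klf1 and Nfe2, the receptors and surface proteins Epor, Tfrc and Ermap, and the enzymes Car1, Car2, Alas2 and Blvrb. They were chosen by gene symbol, and all 10 were found among the 15366 genes of the expression table. All 10 also passed the filter on low values, a CPM (a gene's reads as a share of its library's reads, scaled by the authors' size factors) above 1 in at least 3 libraries, which left 13046 genes to test. The study measured poly(A) RNA from LSK cells, a flow-sorted bone marrow fraction without lineage markers and with Sca-1 and Kit on its surface, in which blood stem cells and multipotent progenitors are found, taken from untreated C57BL/6 mice. Its 12 libraries form 4 genotype groups of 3, named here as the labels name them. Vav Cre, the control, carries the Cre recombinase driven by Vav, a promoter active throughout the blood lineage, and its label names neither lesion. KDM6B OE carries a human KDM6B transgene under Vav, and its genotype label names no Cre. Tet2 KO carries Vav Cre and a pair of floxed Tet2 alleles (Tet2 flox/flox), so that Cre can delete Tet2 in blood cells. The double lesion carries all of these: Vav human KDM6B, Vav Cre and Tet2 flox/flox. The labels give no age. Nothing in them states that replicates are different mice, and the tests therefore reflect the spread among libraries. By sex-linked genes, Vav Cre, Tet2 KO and the double lesion each hold both sexes, so their libraries cannot all come from the same mouse. The spread may thus be partly or, in KDM6B OE, wholly technical.

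Erythroid commitment starts at low level in multipotent progenitors, where Gata1 and Klf1 are switched on before any haemoglobin is made. Gata1 binds DNA at GATA motifs and Klf1 at CACCC boxes, and they act together with Nfe2 on the erythropoietin receptor, red cell surface proteins, carbonic anhydrases and the haem pathway. Haem is built in mitochondria and cytosol from glycine and succinyl-CoA, and the erythroid isoenzyme Alas2 carries out the first and rate-limiting step in red cell precursors, while Alas1 does so in other cells. Iron enters through the transferrin receptor Tfrc, and the products of haem breakdown are reduced by the biliverdin reductases Blvra and Blvrb.

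Promoter stretches are shown for Alas2, the member with the largest difference between genotypes, and for Gata1, Klf1, Ermap and Blvrb, whose levels varied together from library to library. They come from RefSeq (build GRCm38.p6), hold up to 250 bases before the transcription start with annotated exon bases left out, and run 5′ to 3′ on the gene's strand. Capitals mark AGATAA, which the Gata1 family binds, or the Klf1 motif CACCC. Each was searched on both strands, so TTATCT is the former and GGGTG the latter read from the other strand. Other GATA sequences were not searched and stay in lower case, such as TTATCA in the Klf1 and Ermap stretches.

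Alas2 (chrX:150547167-150547374, plus strand): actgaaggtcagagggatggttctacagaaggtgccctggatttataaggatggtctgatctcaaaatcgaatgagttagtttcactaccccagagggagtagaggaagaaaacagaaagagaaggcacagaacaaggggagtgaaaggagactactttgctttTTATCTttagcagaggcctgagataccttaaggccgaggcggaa

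Gata1 (chrX:7967911-7968160, minus strand): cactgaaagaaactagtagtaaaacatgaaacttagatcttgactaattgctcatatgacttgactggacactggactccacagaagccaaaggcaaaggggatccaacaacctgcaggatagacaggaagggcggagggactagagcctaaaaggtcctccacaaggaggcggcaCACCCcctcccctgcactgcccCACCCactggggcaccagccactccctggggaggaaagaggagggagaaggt

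Klf1 (chr8:84901732-84901927, plus strand): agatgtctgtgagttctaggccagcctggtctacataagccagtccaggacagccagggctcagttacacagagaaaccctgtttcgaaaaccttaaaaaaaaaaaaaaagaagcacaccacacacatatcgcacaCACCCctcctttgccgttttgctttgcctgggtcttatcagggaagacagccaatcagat

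Ermap (chr4:119190012-119190245, minus strand): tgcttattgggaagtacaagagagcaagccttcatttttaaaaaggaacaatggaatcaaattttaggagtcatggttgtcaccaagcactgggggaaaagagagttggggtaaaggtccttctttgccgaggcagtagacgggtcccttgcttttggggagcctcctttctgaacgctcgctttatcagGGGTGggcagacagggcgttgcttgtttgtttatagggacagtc

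Blvrb (chr7:27447728-27447977, plus strand, the upstream of its 2 starts in RefSeq): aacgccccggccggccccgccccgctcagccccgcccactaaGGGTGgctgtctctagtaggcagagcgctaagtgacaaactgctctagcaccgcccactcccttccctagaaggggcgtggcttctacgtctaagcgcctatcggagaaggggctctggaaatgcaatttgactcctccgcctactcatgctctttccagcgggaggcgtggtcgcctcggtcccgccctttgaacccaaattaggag

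In the Alas2 stretch the single capital run is AGATAA read from the other strand, which begins 86 bases before the start. Gata1 holds CACCC 74 and 52 bases before its start, Klf1 114 bases before, Ermap 60 bases before and Blvrb 208 bases before. RefSeq promoters were matched for 7 of the 10 members, all except Car1, Car2 and Nfe2. Over the full windows of 250 bases, AGATAA was present in 2 of these 7, Alas2 and Epor, against 11.4% of 27025 genes, counting a gene where any of its windows holds it. CACCC was present in 7 of 7, against 54.5% of all genes. For Alas2 its matches lie in the exon bases left out of the stretch shown. TGAGTCA, the core to which Nfe2 binds, was present in 0 of 7, against 5.16%. Such a match describes the letters only and does not show that a factor binds there.

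The libraries held 21935022 to 26263370 reads on listed genes, so that 1 read was worth 0.0373 to 0.0463 CPM. Tet2 lay between 64.9 and 97.1 CPM in Vav Cre and KDM6B OE and between 24.1 and 37.2 CPM in the 2 groups with floxed Tet2, without overlap. Mouse Kdm6b, which may also take reads of the human transgene, lay at 5.46 to 7.91 CPM in the groups without the transgene and 7.79 to 12.5 CPM in those with it, which overlap. The LSK markers Kit (356 to 907 CPM), Cd34 (821 to 1053 CPM) and Ly6a, the Sca-1 gene (78.2 to 180.0 CPM), were present in all 12 libraries. The T cell gene Cd3e reached at most 1.43 CPM and the B cell factor Pax5 at most 0.522 CPM, while the granule gene Mpo stood at 1720.1 to 6199 CPM. By Y-linked genes and Xist, 4 libraries were male (Vav Cre 1, Tet2 KO 1, double lesion 1 and 3) and 8 female. Gata1 and Alas2 lie on the X chromosome. The library Vav Cre 2 stood apart from the other 11 in most of the genes described, so results that rest on it are given with and without it.

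Gata1, the factor that sets up the erythroid and megakaryocytic programme (chrX:7959260-7978071, minus strand, GRCm38), was measured at 48.3, 119 and 47.7 CPM in Vav Cre 1 to 3. It stood at 33.1, 46.4 and 48.9 CPM with KDM6B OE, 31.4, 64.7 and 70.7 CPM for Tet2 KO, and 24.2, 52.0 and 41.4 CPM in the double lesion. Vav Cre 2 was the highest of the 12 libraries and the double lesion 1 the lowest, and every pair of groups overlapped. The double lesion differed from Vav Cre by -0.78 ± 0.38 (log2 difference ± SE on the log2(CPM + 1) scale, adjusted p = 0.168), which did not pass the threshold of 0.05. The test is limma, a linear model fitted to all genes with 1 spread shared by the groups, and its p-values are adjusted by Benjamini-Hochberg over the 13046 genes. Without Vav Cre 2 the difference was -0.35. Because these are bulk samples, fewer cells of a type and less RNA per cell cannot be told apart, for this gene and for those that follow.

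Klf1, the activator of beta-globin and of many red cell genes (chr8:84901928-84905291, plus strand), was likewise highest in Vav Cre 2. Its levels were 25.5, 142 and 55.4 CPM in Vav Cre, 29.2, 52.0 and 39.1 CPM with KDM6B OE, 29.9, 51.3 and 74.0 CPM for Tet2 KO, and 19.4, 41.0 and 41.8 CPM in the double lesion. Vav Cre 2 held 3.52 times the mean of the other 2 Vav Cre libraries, and all groups overlapped. The difference of the double lesion from Vav Cre was -0.85 ± 0.50 (log2, limma adjusted p = 0.259), -0.22 without Vav Cre 2 and -1.44 without Vav Cre 1 (adjusted p = 0.0534).

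Nfe2 (chr15:103248212-103258403, minus strand) encodes the large subunit of NF-E2, which pairs with small Maf proteins and acts in red cell and platelet precursors. It was the steadiest member, at 628, 505 and 543 CPM in Vav Cre, 666, 645 and 693 CPM with KDM6B OE, 669, 629 and 628 CPM for Tet2 KO, and 690, 683 and 681 CPM in the double lesion. Every library of the other 3 groups lay above every Vav Cre library, and here Vav Cre 2 was the lowest of the 12. The closest values, 627.8 CPM in Vav Cre 1 and 628.3 CPM in Tet2 KO 3, nearly touched. The mean was 685 ± 4.59 CPM in the double lesion and 558 ± 62.9 CPM in Vav Cre (SD, n = 3 each), a ratio of 1.23.

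The erythropoietin receptor gene Epor (chr9:21958897-21963506, minus strand) was low in every group. It stood at 8.87, 22.6 and 15.4 CPM in Vav Cre, 15.7, 15.8 and 17.6 CPM with KDM6B OE, 11.7, 9.35 and 25.8 CPM for Tet2 KO, and 7.98, 15.7 and 15.1 CPM in the double lesion. Tet2 KO 3 was the highest and the double lesion 1 the lowest; the double lesion lay just below KDM6B OE without overlap, and overlapped both other groups. The double lesion minus Vav Cre was -0.22 ± 0.37 (log2, limma adjusted p = 0.717), and 0.08 without Vav Cre 2.

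Tfrc, the receptor that takes up transferrin-bound iron (chr16:32608920-32632794, plus strand), was at 34.5, 73.3 and 38.6 CPM in Vav Cre 1 to 3, and KDM6B OE had 34.4, 48.7 and 47.1 CPM. Tet2 KO had 36.8, 51.4 and 48.9 CPM, and the double lesion 39.7, 54.5 and 50.7 CPM. Vav Cre 2 was again the highest library, and the groups overlapped throughout. Its difference in the double lesion from Vav Cre was 0.05 ± 0.25 (log2, limma adjusted p = 0.906), and 0.38 without Vav Cre 2.

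Ermap, an immunoglobulin-like surface protein of erythroblasts (chr4:119175457-119190011, minus strand), had the widest spread inside the control group. Its values were 10.1, 109 and 34.1 CPM in Vav Cre, 26.1, 38.4 and 28.4 CPM with KDM6B OE, 18.0, 39.8 and 58.4 CPM for Tet2 KO, and 14.2, 27.8 and 31.8 CPM in the double lesion. Vav Cre held both the lowest and the highest of the 12 libraries. For the double lesion against Vav Cre it gave -0.53 ± 0.63 (log2, limma adjusted p = 0.597) with all libraries and 0.30 without Vav Cre 2, so its sign turned.

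**Figure D1:**
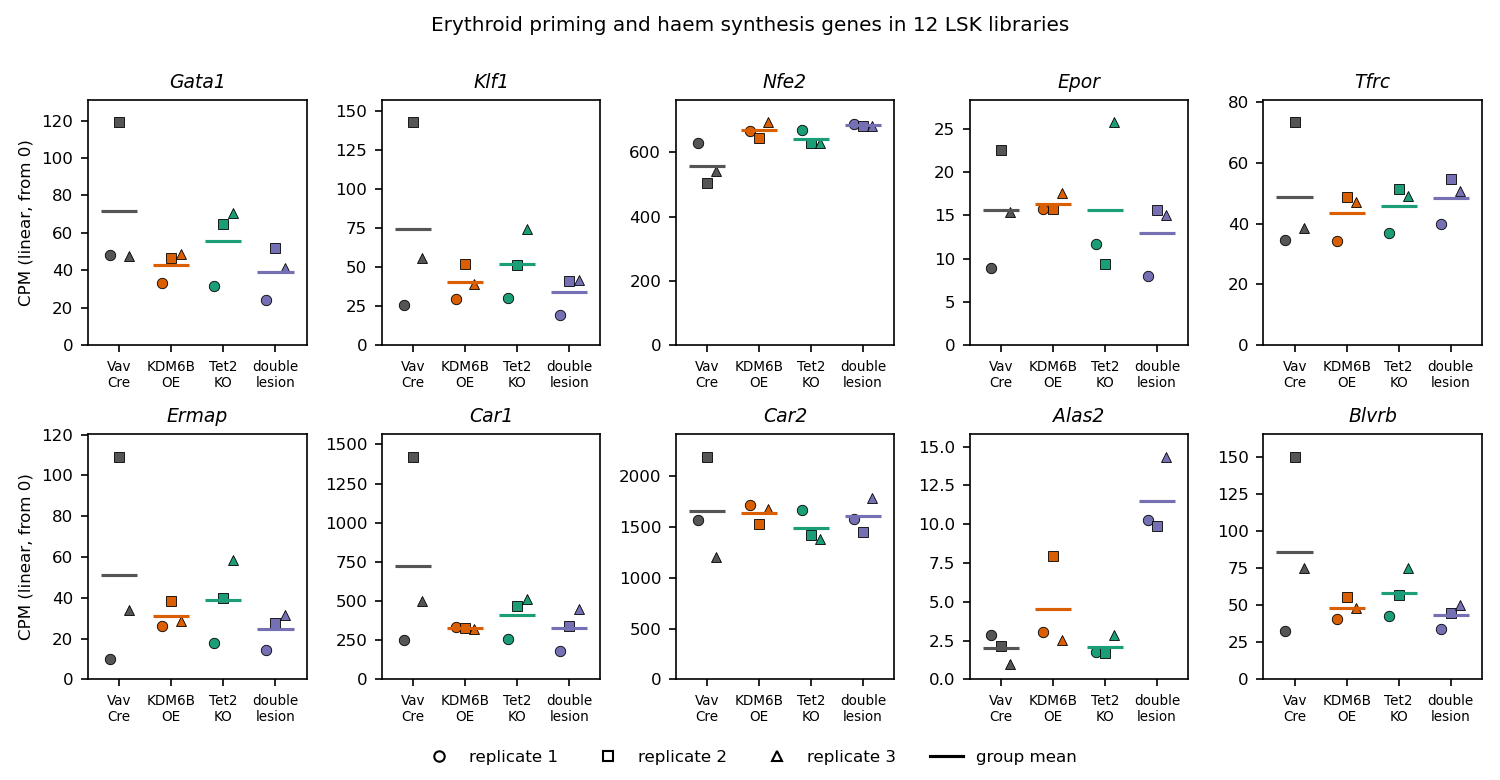
CPM of each of the 10 genes (vertical axis, linear and starting at 0) in the 4 genotype groups (horizontal axis), with 1 point per library, replicate number by marker shape, and a bar for the group mean. The square of Vav Cre 2 is the top point for 7 genes, and the 3 double lesion libraries lie above all others only for Alas2.

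Car1, a cytosolic carbonic anhydrase and early erythroid gene (chr3:14766216-14808368, minus strand), was at 248, 1423 and 498 CPM in Vav Cre 1 to 3, and KDM6B OE had 333, 328 and 324 CPM. Tet2 KO had 257, 471 and 511 CPM, and the double lesion 183, 343 and 449 CPM. The KDM6B OE libraries were nearly level, while Vav Cre 2 had 2.79 times the next highest library. The double lesion minus Vav Cre was -0.88 ± 0.48 (log2, limma adjusted p = 0.229), and -0.21 without Vav Cre 2. Without Vav Cre 1, the lowest of its group, it was -1.46 and passed the test (adjusted p = 0.0426).

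Car2, the neighbouring carbonic anhydrase gene (chr3:14886273-14900770, plus strand), varied less between libraries than Car1. Its levels were 1568, 2194 and 1200.3 CPM in Vav Cre, 1714, 1533 and 1683 CPM with KDM6B OE, 1664, 1426 and 1378 CPM for Tet2 KO, and 1577, 1456 and 1782 CPM in the double lesion. Vav Cre held both extremes, and all groups overlapped. The double lesion minus Vav Cre was -0.0044 ± 0.17 (log2, limma adjusted p = 0.990), and 0.22 without Vav Cre 2.

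Blvrb (chr7:27447978-27466144, plus strand), a flavin and biliverdin reductase abundant in red cells, was at 32.5, 150.1 and 75.0 CPM in Vav Cre 1 to 3, and KDM6B OE had 40.9, 55.4 and 48.2 CPM. Tet2 KO had 42.5, 56.6 and 75.3 CPM, and the double lesion 33.9, 44.8 and 50.2 CPM. As for Gata1 and Klf1, Vav Cre 2 was the highest and all groups overlapped. The double lesion minus Vav Cre was -0.74 ± 0.39 (log2, limma adjusted p = 0.208), and -0.22 without Vav Cre 2. Without Vav Cre 1 it was -1.30 and passed the test (adjusted p = 0.0187).

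Alas2 (chrX:150547375-150570638, plus strand) had the fewest reads of all members and separated the genotypes most. Its levels were 2.84, 2.15 and 0.966 CPM in Vav Cre, 3.04, 7.95 and 2.54 CPM with KDM6B OE, 1.76, 1.71 and 2.86 CPM for Tet2 KO, and 10.3, 9.85 and 14.4 CPM in the double lesion. All 3 double lesion libraries lay above the other 9, and KDM6B OE 2 was the highest of the rest. In reads, the Vav Cre libraries held 67, 47 and 22, the double lesion libraries 275, 261 and 369, and KDM6B OE 2 held 194. Means were 11.5 ± 2.49 CPM in the double lesion, 4.51 ± 2.99 CPM with KDM6B OE, 2.11 ± 0.651 CPM for Tet2 KO and 1.99 ± 0.949 CPM in Vav Cre (SD, n = 3 each). The double lesion mean was thus 5.78-fold that of Vav Cre, 5.44-fold that of Tet2 KO and 2.55-fold that of KDM6B OE.

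Against Vav Cre, the double lesion was higher in Alas2 and in Nfe2, and the other 8 members did not pass the test. Alas2 rose by 2.10 ± 0.36 (log2, limma adjusted p = 0.005513) and Nfe2 by 0.30 ± 0.094 (log2, limma adjusted p = 0.0469). Over all 13046 genes tested, 14.9% were called in this comparison, 7.34% as higher, so 2 of 10 members is near the background share. Without Vav Cre 2 the background share was 4.69%, Alas2 stayed called (2.17, adjusted p = 0.0137) and Nfe2 did not (0.23, adjusted p = 0.153). The same 2 members were also the only ones whose groups did not overlap, both higher, against 16.4% of all genes in that direction. The median difference of the 10 members was -0.37 (log2), against 0.05 over all genes, and it was 0.15 without Vav Cre 2, -0.77 without Vav Cre 1 and -0.09 without the double lesion 1. The analysis was repeated under 21 alternative settings, such as other tests or 1 library left out. The call for Alas2 held under all 21, with values from 1.83 to 2.53. That for Nfe2 was lost under 15 of them, with values from 0.21 to 0.39 and adjusted p up to 0.153; of the libraries left out in turn, it was kept only without Vav Cre 1 or Tet2 KO 2.

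Neither lesion alone gave a call among the members. KDM6B OE against Vav Cre called 0 of 10 members with limma, and 0.598% of all genes. Alas2 differed there by 0.81 ± 0.36 (log2, adjusted p = 0.213, unadjusted p = 0.04066 in limma), and by 0.39 without KDM6B OE 2, the highest library of its group. Nfe2 differed by 0.26 ± 0.094 (adjusted p = 0.145). Tet2 KO against Vav Cre also called 0 of 10, with 0.0307% of all genes called. A replicate block, a term for replicate number over all 4 groups, was also fitted. With it limma called 1 gene, 0.00767% of those tested, and again 0 of 10 members. In the main fit, without the block, Alas2 in Tet2 KO was 0.09 ± 0.36 from Vav Cre (log2, limma adjusted p = 0.929). Nfe2 was 0.21 ± 0.094 from it (limma adjusted p = 0.363). Nfe2 was the sole member whose groups did not overlap in either comparison, higher in both, as were 11.6% of all genes for KDM6B OE and 6.87% for Tet2 KO. The 2 comparisons share their Vav Cre libraries with each other and with that of the double lesion.

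**Figure D2:**
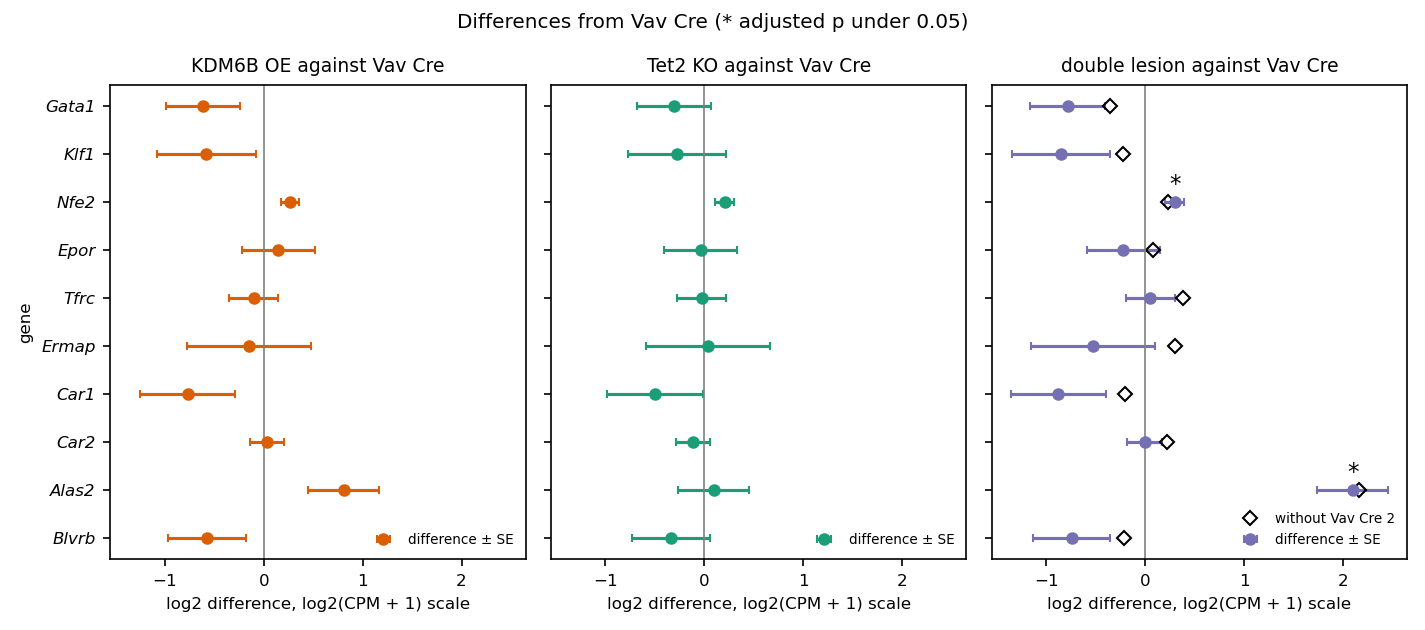
Differences from Vav Cre (horizontal axis, log2 on the log2(CPM + 1) scale, with the standard error as bars) for the 10 genes (vertical axis) in KDM6B OE, Tet2 KO and the double lesion. Stars mark adjusted p under 0.05 and open diamonds the double lesion value without Vav Cre 2; Alas2 stands at 2.10 and moves little without that library, while Gata1, Klf1, Car1 and Blvrb move towards 0 and Ermap crosses it.

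Between the lesioned groups, Alas2 again stood out. It was higher in the double lesion than in Tet2 KO by 2.01 ± 0.36 (log2, limma adjusted p = 0.0366), the sole member called, where 0.215% of all genes were called, 0.192% as higher. That call was lost under 10 of 21 alternatives, with adjusted p up to 0.204 and values from 1.85 to 2.44. These included leaving out any library of either group, or KDM6B OE 1. Against KDM6B OE the difference in Alas2 was 1.29 ± 0.36 (log2, limma adjusted p = 0.513, unadjusted p = 0.002916); limma called 0 genes there, 0.0% of all tested, and 771 at an unadjusted p under 0.05. In that comparison Alas2 was higher without overlap, as were 8.98% of all genes, and Epor lower without overlap, as were 9.72%. Nfe2 was also higher without overlap in the double lesion than in Tet2 KO, by 0.09 ± 0.094 (log2, adjusted p = 0.726), as were 10.8% of all genes. Between KDM6B OE and Tet2 KO limma called 0 of 10 members and 0.199% of all genes.

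Taking the 6 libraries with the transgene against the 6 without it, averaged over the Tet2 genotypes, Alas2 was higher by 1.41 ± 0.25 (log2, limma adjusted p = 0.0137), the sole member called; of all genes 4.35% were called, 2.52% as higher. This call held under all 20 alternatives, from 1.20 to 1.81. The libraries with the transgene had 7.998 ± 4.55 CPM of Alas2 and those without it 2.05 ± 0.731 CPM (SD, n = 6 each), and the ranges overlapped through KDM6B OE 3. An exact two-sided permutation test of these 6 against 6 gave p = 0.008658 for Alas2 and p = 0.006494 for Nfe2 (676 ± 17.9 against 600.2 ± 62.4 CPM). Both became 0.0866 after Benjamini-Hochberg adjustment over the 20 such tests and so did not pass. For Nfe2 the limma difference was 0.18 ± 0.066 (log2, adjusted p = 0.110). Averaged over the transgene, loss of Tet2 gave 0.69 ± 0.25 for Alas2 (log2, limma adjusted p = 0.243) and called 0 of 10 members, against 0.207% of all genes. The interaction of the lesions, the part of the double lesion that the sum of both single lesions does not give, was 1.20 ± 0.51 for Alas2 (log2, limma adjusted p = 0.999, unadjusted p = 0.03301). Limma called 0 genes for that term, 0.0% of those tested, and 578 at an unadjusted p under 0.05. The KDM6B OE label names no Cre. If those mice lack it, Cre and lesions cannot be told apart in any comparison that includes KDM6B OE.

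Measures that could bear on the Alas2 values were read in the same libraries. The exons of Alas2 overlap those of Apex2, a DNA repair endonuclease gene on the opposite strand, and the library kit does not mark strand, so reads of the 2 genes cannot be told apart where they overlap. Apex2 stood at 7.68 to 14.3 CPM in Vav Cre and 15.6 to 18.5 CPM with KDM6B OE. It stood at 12.1 to 14.6 CPM for Tet2 KO and 14.0 to 16.8 CPM in the double lesion. The summed level of 8 early response genes induced by tissue dissociation, such as Fos and Jun, was 1075 to 2536 CPM in the 6 libraries without the transgene and 5621 to 9405 CPM in the 6 with it. KDM6B OE 1, 2 and 3 had 5621, 8590 and 6374 CPM of it, with Alas2 at 3.04, 7.95 and 2.54 CPM. The summed level of 12 genes of the G2 and M phases was 1483 to 2213 CPM in the double lesion and 2599 to 4170 CPM in the other groups, without overlap. The summed level of 10 eosinophil genes was 545 to 4234 CPM in the double lesion and 25.2 to 855 CPM elsewhere. Within the double lesion the eosinophil sum was 4234, 1460 and 545 CPM in replicates 1 to 3, with Alas2 at 10.3, 9.85 and 14.4 CPM. Against Vav Cre, limma called 5 of 8 tested eosinophil genes and 3 of 7 neutrophil genes as higher in the double lesion. It also called 1 of 5 B cell genes and 0 of 2 T cell genes, beside 7.34% of all genes called higher. The neutrophil sum overlapped, at 2670 to 5247 CPM in the double lesion and 1780 to 6521 CPM elsewhere, as did the B cell sum, at 80.0 to 108 and 64.0 to 182 CPM. The T cell sum was low throughout and did not overlap, at 6.94 to 8.21 CPM in the double lesion and 1.59 to 6.27 CPM elsewhere. Of 10 LSK genes, 3 were called higher, beside the same 7.34% of all genes. The part of these measures in the Alas2 result was not tested. With a term for sex, the Alas2 difference between double lesion and Vav Cre was 2.03 (limma adjusted p = 0.01059), and the 1 female double lesion library, at 9.85 CPM, lay above the 2 female Vav Cre libraries, at 2.15 and 0.966 CPM.

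Markers of haemoglobinised erythroid cells did not follow Alas2 as a list. The globins, Ahsp and Epb42 were not found in the expression table under the symbols searched. The 10 others of the 18 such genes were present. Their summed level was 108 to 358 CPM in Vav Cre, 140 to 199 CPM with KDM6B OE, 140 to 230.3 CPM for Tet2 KO and 133 to 202 CPM in the double lesion. In the double lesion 0 of the 10 passed the test against Vav Cre, where 14.9% of all genes did. The median difference of the 10 was 0.26 (log2), against 0.05 over all genes. Slc4a1, the red cell anion exchanger band 3, was at 0, 0 and 0.132 CPM in Vav Cre and at 0.171, 0 and 0 CPM in Tet2 KO. It reached 0.0440, 2.79 and 3.47 CPM in KDM6B OE and 3.62, 1.77 and 0.739 CPM in the double lesion. It thus stood at 0.739 CPM or more in 5 of the 6 libraries with the transgene and at 0.171 CPM or less in the 6 without it; 0 reads allow up to 0.139 CPM, for counting error only. Limma called it for the transgene (1.37, log2, adjusted p = 0.0431) and did not call it for the double lesion against Vav Cre (1.43, adjusted p = 0.0585), where edgeR on the reads did (adjusted p = 0.0378). Only libraries with the transgene exceeded 1 CPM of Slc4a1, so it passed the filter on low values through them alone. These calls are therefore not independent of that filter and are given as a description.

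**Figure D3:**
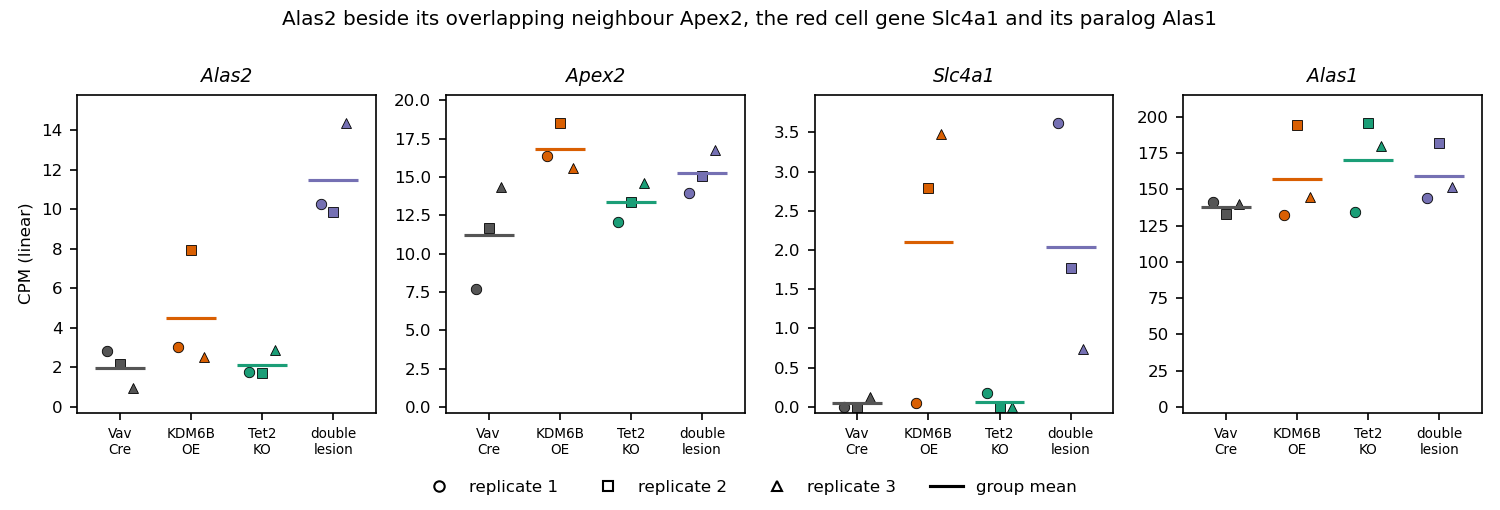
CPM (vertical axes, linear from 0) of Alas2, its overlapping neighbour Apex2, the red cell gene Slc4a1 and the housekeeping paralog Alas1, with 1 point per library and a bar for each group mean. The double lesion is the highest group for Alas2 only; Slc4a1 is at 0.739 CPM or more in 5 libraries, all with the transgene.

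Within groups the members varied more than genes in general, and most of all in Vav Cre. The median within-group SD (log2) of the 10 members was 0.69 in Vav Cre, 0.24 in KDM6B OE, 0.47 in Tet2 KO and 0.39 in the double lesion. Over all 13046 genes the same medians were 0.28, 0.15, 0.21 and 0.15. Vav Cre 2 was the highest of the 12 libraries for 7 members, the lowest for Nfe2 and the ninth for Alas2. Against the mean of Vav Cre 1 and 3 it held 4.94 times as much Ermap, 3.82 times as much Car1, 3.52 times as much Klf1, 2.79 times as much Blvrb and 2.48 times as much Gata1. It also had the highest haemoglobinised erythroid sum (358 CPM, against 108 to 230.3 CPM elsewhere), and 6 of those 10 genes peaked there. Its LSK marker sum was the lowest (2250 CPM, against 2874 to 4006), as were its megakaryocyte sum (428 CPM, against 620.1 to 1038) and Gata2 (95.4 CPM). Its sum of G2 and M phase genes was the highest, at 4170 CPM, where the other Vav Cre libraries had 3466 and 3542 CPM. The part of these measures in the members' levels was not tested.

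**Figure D4:**
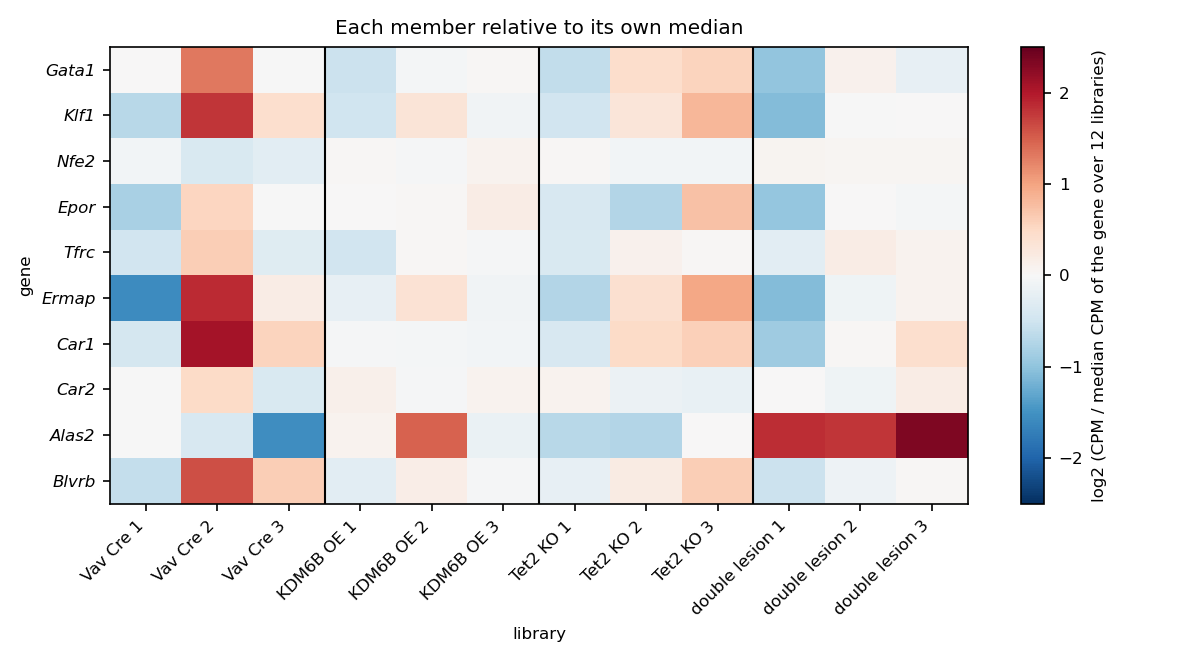
Level of each of the 10 genes (rows) in each of the 12 libraries (columns, grouped by genotype) as log2 of its CPM over the gene's own median, from blue (lower) to red (higher). The Vav Cre 2 column is red for 8 genes, the double lesion 1 column is blue for Gata1, Klf1, Epor, Ermap, Car1 and Blvrb, and the Alas2 row is red in the double lesion and in KDM6B OE 2.

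Gata1, Klf1, Ermap, Car1 and Blvrb varied together across libraries. As a description over 12 libraries, which share group structure and the outlying Vav Cre 2, the 10 pairs among these 5 genes had Pearson correlations of log2(CPM + 1) from 0.80 to 0.97, and from 0.64 to 0.94 without Vav Cre 2. Epor (0.59 to 0.78) and Tfrc (0.74 to 0.81) ran with them, at 0.47 to 0.74 and 0.45 to 0.66 without Vav Cre 2. Car2 turned sign, from 0.20 to 0.35 with all libraries and from -0.65 to -0.38 without that one. Nfe2 ran against them, from -0.83 to -0.61, and from -0.60 to -0.25 without Vav Cre 2. Alas2 was only weakly related to them, from -0.36 to -0.19, and from -0.33 to -0.0812 without it. Among 10587 genes with a mean above 5 CPM, those most like Klf1 over the 12 libraries were Blvrb (r = 0.97), Ces2g (0.97), Fam132a (0.95), Ermap (0.95) and Nubp2 (0.95). Those most like Gata1 were Atp6v0e (0.97), Dnajb6 (0.96), Cdc5l (0.96), Mrpl36 (0.96) and Mrpl37 (0.95), none of them a member. Without Vav Cre 2 the correlations of these genes were 0.92 to 0.94 with Klf1 and 0.91 to 0.95 with Gata1.

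Per length of annotated exon, Car2 was the most abundant member by its mean. The mean over 12 libraries was 660 CPM per kb for Car2 and 358 CPM per kb for Car1, followed by Nfe2 at 214 CPM per kb; the range of Car1, 147 to 1140 CPM per kb, took in all of that of Nfe2, 169 to 232, and reached past that of Car2, 496 to 906. Next came Klf1 at 32.7, Gata1 at 21.5 and Blvrb at 21.1 CPM per kb. Epor (7.60), Tfrc (7.52) and Ermap (6.86 CPM per kb) formed a lower tier whose ranges overlapped, as did those of Klf1, Gata1 and Blvrb. Alas2 was the lowest at 2.09 CPM per kb, with 0.402 to 5.97 CPM per kb over the libraries.

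The 15 genes of the haem synthesis list, from the mitochondrial glycine carrier to ferrochelatase, did not follow Alas2 as a group. Of the 15, 2 were higher and 1 lower in the double lesion against Vav Cre, where 7.34% of all genes were called higher and 7.58% lower (14.9% in all), and the median was -0.17 (log2) against 0.05 over all genes. Alas2 was the first of these, and Ppox, protoporphyrinogen oxidase, rose from 77.0 ± 16.4 to 108 ± 3.79 CPM (0.50, limma adjusted p = 0.0446). Urod, uroporphyrinogen decarboxylase, fell from 143 ± 31.6 to 101 ± 5.79 CPM (-0.47, adjusted p = 0.0388). Without Vav Cre 2 neither Urod (adjusted p = 0.137) nor Ppox (adjusted p = 0.141) was called, and only Alas2 remained called without any double lesion library or without KDM6B OE 2 or 3. Without Vav Cre 1, 1 was higher and 4 lower, where 12.5% of all genes were called. Over the 21 alternatives the call ended under 13 for Ppox and under 10 for Urod. The housekeeping paralog Alas1 was at 133 to 141 CPM in Vav Cre and 144 to 182 CPM in the double lesion (0.20, limma adjusted p = 0.416). Limma called 0 of the 15 in either single lesion against Vav Cre.

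Among 14 partners of the erythroid transcription factors, 4 rose and 0 fell in the double lesion against Vav Cre, where 7.34% of all genes were called higher. Their median was 0.54 (log2), against 0.05 over all genes. Cbfa2t3, a corepressor of the Tal1 complex also known as Eto2, rose from 94.7 ± 15.0 to 170 ± 5.73 CPM (0.85 ± 0.12, limma adjusted p = 0.003147). It was also the sole gene of the list called in KDM6B OE against Vav Cre (0.77, adjusted p = 0.009498). Sox6, a repressor of embryonic globin, rose from 37.3 ± 18.3 to 85.6 ± 17.2 CPM (1.26, adjusted p = 0.0193). Gata2, the stem and progenitor paralog that Gata1 replaces during erythroid maturation, rose from 144 ± 46.9 to 222 ± 18.7 CPM (0.67, adjusted p = 0.0295). Ldb1, the bridging protein of the same complex, rose from 113 ± 33.1 to 164 ± 8.49 CPM (0.58, adjusted p = 0.0313). Without Vav Cre 2, where 4.69% of all genes were called, just 1 of the 14 was called, Cbfa2t3 (0.71, adjusted p = 0.006872). The count was also 1 without the double lesion 1 (2.31% of all genes), 2 without the double lesion 2 (5.75%) or 3 (6.36%), and 9 without Vav Cre 3 (27.6%). These leave-one-out shares count both directions, and 0 of the 14 were lower in any of these fits. In Tet2 KO against Vav Cre limma called 0 of 14.

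Of 13 genes of erythropoietin receptor signalling, 2 rose and 1 fell in the double lesion against Vav Cre, beside 14.9% of all genes called, with a median of 0.19 (log2) against 0.05. The feedback inhibitors of cytokine receptors went in opposite directions, since Socs3 rose from 5.23 ± 0.824 to 17.4 ± 7.72 CPM (1.498, limma adjusted p = 0.005614) and Socs2 fell from 23.4 ± 6.25 to 9.55 ± 0.918 CPM (-1.18, adjusted p = 0.005576). The insulin receptor substrate gene Irs2 rose from 12.5 ± 6.87 to 30.8 ± 5.36 CPM (1.39, adjusted p = 0.0188). Socs3 alone was called in KDM6B OE against Vav Cre (1.72, adjusted p = 0.008279), and 0 of 13 in Tet2 KO. Without Vav Cre 3, 6 of the 13 were higher and 1 lower in the double lesion, where 27.6% of all genes were called in either direction. Without the double lesion 1 (2.31%) or 2 (5.75%) just 1 was higher, Socs3, and 1 lower. Stat5a, the main effector of the receptor, was not called in the double lesion (0.29, adjusted p = 0.0982).

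Of 15 tested genes of iron and haem handling, 2 rose and 2 fell in the double lesion against Vav Cre, beside 7.34% of all genes called higher and 7.58% lower, with a median of -0.10 (log2) against 0.05. Tfr2, the transferrin receptor paralog that binds Epor, rose from 136 ± 30.0 to 212 ± 22.3 CPM (0.66, limma adjusted p = 0.0134) while Tfrc was not called. The iron exporter gene Slc40a1 rose from 18.0 ± 10.1 to 36.4 ± 2.89 CPM (1.13, adjusted p = 0.0453), a call that ended under 12 of 21 alternatives, among them edgeR, no filter and leaving out Vav Cre 1, where it was 0.67 (adjusted p = 0.126), or any KDM6B OE or double lesion library, or Tet2 KO 1 or 3. Pcbp2, an iron chaperone, fell from 129 ± 19.1 to 93.9 ± 1.28 CPM (-0.45, adjusted p = 0.0228), and the biliverdin reductase Blvra fell from 70.4 ± 19.1 to 46.6 ± 4.15 CPM (-0.56, adjusted p = 0.0426). Neither Pcbp2 (adjusted p = 0.0788) nor Blvra (adjusted p = 0.158) was called without Vav Cre 2; over all alternatives the call ended under 5 for Pcbp2 and under 11 for Blvra. Without the double lesion 1, 0 of 15 were called (2.31% of all genes), and without Vav Cre 3, 3 were higher and 3 lower (27.6%). Limma called 0 of the 15 in either single lesion against the control.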

How the data were processed

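Libraries were made with the SMARTer v4 and Nextera kits (per the labels' protocols), which mark no strand. Per the submitters' processing notes, the tools were edgeR 3.8.6, HTSeq 0.6.0 and TopHat2 2.0.10, with the build mm10. Annotation and strand setting: not given in the sources used here. Each deposited value is a signal, a count divided by a size factor, that is, CPM over the authors' effective library size. All values gave back whole reads (100% within 1e-06 reads). Each listed gene had at least 10 reads over the 12 libraries. The design foresaw plain CPM; its test was kept, since it suits this unit.

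The main test was limma 3.58.1 (R 4.3.3) on log2(CPM + 1), with empirical Bayes, a mean trend, 1 mean per group and 12 libraries, for genes with CPM above 1 in at least 3 libraries, adjusted by Benjamini-Hochberg in each comparison, with 0.05 as the threshold. The difference scale understates changes of low genes. Single members were also compared, 6 libraries against 6, by exact two-sided permutation tests (scipy 1.17.1; the smallest possible p is 0.002165); 3 against 3 cannot go below 0.1 and was not tested so. The limma fit was run on simulated counts with the same spread setting for all genes and groups. That run could not test the effect of unequal spread between groups. Coordinates and exon lengths came from GENCODE vM21 (GRCm38, the same build as mm10).

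The members and all gene lists were chosen with earlier results of these data known. Named genes were the 10 members, up to 4 genes per pathway list with the smallest adjusted p for the double lesion against Vav Cre, and direct paralogs of members; Slc4a1, Apex2, Tet2, Kdm6b and marker genes were added as checks; 1 further check gene is not reported here. Alternatives were fits of only the compared groups, a replicate block, a pseudocount of 0.25, no filter, columns scaled to equal totals, edgeR 4.0.16 (quasi-likelihood) and DESeq2 1.42.0 on the recovered reads, array weights, a sex term, and each library left out. edgeR called 1652 genes for the double lesion against Vav Cre, where limma called 1947. Libraries with the same replicate number correlated in their deviations from the group means by 0.30 to 0.34 between Vav Cre and Tet2 KO. The labels do not say what the numbers stand for, so a pairing is not known. The block changed no member's call between these 2 groups. The other pairs of groups had at least 1 value below 0.1, although Tet2 KO 1 and the double lesion 1 reached 0.388.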

Additional observations from a re-analysis of the deposited data

How the results depend on the processing

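The number of members called in the double lesion against Vav Cre, 2 with limma, was 1 (Alas2) with only the compared groups, no filter, edgeR, array weights or a sex term, and ranged from 1 to 4 as libraries were left out; the 4, without Vav Cre 1, where 12.5% of all genes were called, were Alas2, Nfe2, Car1 and Blvrb. Against Tet2 KO, 1 became 0 with a pseudocount of 0.25, edgeR or a sex term, and 0 to 1 as libraries were left out. With the replicate block the count against Vav Cre was 3, beside 20.7% of all genes, as Gata1 fell by 0.78 with adjusted p = 0.0332 in limma. The block changed no other member's call. For 6 of 12 libraries, the mean correlation with the other groups' libraries was highest for those of their own number. The cause of these changes was not tested.

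Some differences of the double lesion from Vav Cre turned sign, none of them called. Epor was 0.20 with array weights and -0.55 to 0.0764 as libraries were left out. Tfrc was -0.0136 with edgeR, -0.05 with DESeq2 and -0.15 to 0.38 as libraries were left out. Ermap was 0.42 with array weights and -1.36 to 0.30 as libraries were left out. Car2 was 0.08 with equal totals, 0.0202 with array weights and -0.21 to 0.22 as libraries were left out. For Tet2 KO against Vav Cre, Alas2 was -0.0119 with array weights and -0.18 to 0.30 as libraries were left out. For the double lesion against KDM6B OE, Nfe2 was -0.0441 with a sex term.

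The median of the 10 members for the double lesion against Vav Cre was -0.05 with a sex term, 0.11 with array weights, -0.57 with edgeR and -0.61 with DESeq2. Klf1 was -0.48 with a sex term, -0.15 with array weights and -0.50 without the double lesion 1.

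The number of all genes called depends strongly on single libraries. For the double lesion against Vav Cre it was 1947, 289 with only the compared groups and 300 to 3589 as libraries were left out. Against Tet2 KO it was 28, 173 with array weights, 143 with DESeq2, 53 with only the compared groups, and 9 to 55 as libraries were left out. For the transgene it was 568, 1867 with array weights, 1624 with DESeq2, 1516 with the block, and 94 to 2777 as libraries were left out. Over the other comparisons, KDM6B OE against Vav Cre gave 22 to 1936 around 78, and Tet2 KO against Vav Cre 0 to 305 around 4. Equal totals moved the median of all genes by under 0.1, from 0.05 to 0.12, for the double lesion against Vav Cre. Alas2 rests on 22 to 369 reads per library, the lowest depth of any member.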
